A study of Mus musculus with 6 samples.

Results

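The amino acid transporters of the proximal tubule were examined as 10 genes chosen by name, 6 for uptake from the lumen and 4 for exit to the blood, of 54532 genes in the table of read counts per gene. The 10 were chosen with earlier results of these data known, so their counts beside shares of all genes are no independent test. Whole kidneys came from KsprtTA mice (Control), which carry the rtTA activator under the Ksp promoter, and from KsprtTA/TRE-Adiponectin mice (KSPAPN), which carry a doxycycline-inducible adiponectin transgene as well. All mice received chow with doxycycline at 600 mg/kg for 4 days, so this treatment is shared by both groups, and per the study's methods the mice were male and of C57BL/6 background. The Ksp promoter acts in epithelial cells along the tubule, the proximal part and the collecting duct included. RNA from 3 mice was pooled for each of 3 libraries per group, so the p-values measure the spread between pools. No source used here gives the age of these mice, the sample labels call the Control genotype WT, and their text on RNA extraction names liver where the tissue is given as kidney.

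The proximal tubule recovers nearly all filtered amino acids. Sodium-coupled carriers and exchangers of the brush border bring them into the cell, and exchangers and a uniporter of the basolateral membrane release them to the blood. Several of these carriers are heterodimers of a light chain, which forms the pore, and a heavy chain, which brings it to the membrane, and loss of single carriers causes inherited aminoacidurias such as cystinuria and Hartnup disorder.

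Of the 10 genes, *Slc6a20b* was lower in KSPAPN (adjusted p under 0.05, edgeR) and 0 were higher. Of all 16017 genes tested, 2.25% were lower by this rule and 0.393% were higher. At an unadjusted p under 0.05, 6 of the 10 were lower and 0 were higher, beside 11.2% and 7.52% of all genes tested. The log2 fold change was below 0 for 8 of the 10 and for 48.1% of all genes tested, and the median was -0.32 for the 10 and 0.012 for all. With DESeq2, 3 of the 10 were lower (*Slc6a20b*, *Slc3a1* and *Slc7a8*) and 0 were higher. Of the 29416 genes with a p-value from DESeq2, 744 (2.53%) were lower. These 29416 include genes with low counts that the edgeR filter removed, so this share and that of edgeR have unlike bases. All 10 genes passed the filter on low counts, and the fewest reads on any of them was 1383, for *Slc7a9* in KSPAPN replicate 1.

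The sequences before the start sites of these 3 genes are shown. They are the members that passed an adjusted test with edgeR after its filter on low counts or with DESeq2. The sequences come from RefSeq (GRCm38.p6), are written 5′ to 3′ on the strand of the gene, and stop before the first base that RefSeq or GENCODE M21 places in the transcript. That of *Slc6a20b* is chr9:123632566-123632788 on the minus strand, that of *Slc3a1* chr17:85028097-85028346 on the plus strand and that of *Slc7a8* chr14:54781947-54782136 on the minus strand. Capitals mark a match to an HNF4 motif.
Slc6a20b: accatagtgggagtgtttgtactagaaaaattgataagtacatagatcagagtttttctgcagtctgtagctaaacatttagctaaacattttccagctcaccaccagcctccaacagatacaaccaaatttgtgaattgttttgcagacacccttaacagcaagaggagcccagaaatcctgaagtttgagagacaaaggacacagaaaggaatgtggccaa
Slc3a1: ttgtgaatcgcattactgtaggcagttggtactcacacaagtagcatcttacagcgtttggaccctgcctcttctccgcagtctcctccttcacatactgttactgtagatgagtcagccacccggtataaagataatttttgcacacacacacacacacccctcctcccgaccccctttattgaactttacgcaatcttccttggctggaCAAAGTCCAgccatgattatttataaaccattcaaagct
Slc7a8: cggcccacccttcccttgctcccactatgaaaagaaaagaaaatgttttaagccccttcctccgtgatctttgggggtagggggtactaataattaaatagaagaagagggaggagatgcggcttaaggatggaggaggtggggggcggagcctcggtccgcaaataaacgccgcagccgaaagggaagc
HNF4A is a transcription factor of the proximal tubule. Windows from 250 bases before to 50 bases after each start site were searched on both strands for the HNF4 motif CAAAGTCCA. RefSeq windows were at hand for 9 of the 10 genes, 15 in all. The HNF4 motif was in 1 of the 15, that of *Slc3a1*, where it begins 39 bases before the start site, and in 0.475% of 32851 windows of all genes. A match describes the letters and no binding was measured.

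Among the apical carriers *Slc6a20b* had the largest change, and it fell by 27.7% in KSPAPN. *Slc6a20b* (ENSMUSG00000025243, chr9:123590800-123632565 on the minus strand of GRCm38, 11 exons in its longest transcript) belongs to the family of sodium-coupled transporters that carry proline and related imino acids, of which the mouse has a pair of neighbouring copies. Its level in FPKM, a read density scaled by gene length and library total that the authors computed, was 31.0, 31.0 and 27.4 in the 3 Control libraries and 19.7, 22.6 and 22.1 in the 3 KSPAPN libraries. Every KSPAPN library lay below every Control library. The means were 29.8 ± 2.08 (SD, n = 3 libraries) and 21.5 ± 1.53 FPKM (SD, n = 3), and the log2 fold change was -0.47 ± 0.093 (SE; edgeR adjusted p = 0.0298). The adjusted p from edgeR rose to 0.156, 0.106 and 0.0516 on omission of Control replicates 1, 2 and 3 and to 0.0622 and 0.124 on omission of KSPAPN replicates 2 and 3, with log2 fold changes between -0.52 and -0.40 over all 6 omissions. The adjusted p was 0.0641 in a limma fit of log2(FPKM + 1).

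*Slc6a20b* shares 6.44% of its 100-base stretches with *Slc6a20a*, the copy that lies 2204 bases away with no protein-coding gene between, so part of its reads may be divided between both. *Slc6a20a* was far less abundant, at 3.47 ± 0.758 FPKM in Control and 2.79 ± 0.415 in KSPAPN (SD, n = 3 each), and its log2 fold change, -0.31 ± 0.18 (SE), did not pass (adjusted p = 0.393, edgeR). *Slc6a20b* also overlaps 1801 bases of *Sacm1l* on the opposite strand, and whether reads were counted by strand is not given in the sources used here. *Sacm1l* had a log2 fold change of 0.13 ± 0.085 (SE), opposite in sign.

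*Slc6a18* and *Slc6a19* lie on the minus strand of chromosome 13, 1721 bases apart, with no protein-coding gene between them. *Slc6a18* (ENSMUSG00000021612, chr13:73661752-73678023) encodes a brush border carrier of glycine and other neutral amino acids. Levels were 178, 203 and 173 FPKM in Control and 135, 165 and 154 FPKM in KSPAPN, without overlap. Its log2 fold change was -0.28 ± 0.11 (SE; edgeR adjusted p = 0.193), which did not pass the test. *Slc6a19* (ENSMUSG00000021565, chr13:73679745-73704865) encodes B0AT1, the main sodium-coupled carrier of neutral amino acids, which is lost in Hartnup disorder. Its levels were 58.8, 51.5 and 56.2 FPKM in Control and 34.7, 50.7 and 55.9 FPKM in KSPAPN. Only KSPAPN replicate 1 lay far below the others, and KSPAPN replicate 3 fell between Control libraries. The change on the log2 scale was -0.23 ± 0.15 (SE; edgeR adjusted p = 0.443) and was -0.041 without KSPAPN replicate 1.

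*Slc3a1* and *Slc7a9* encode rBAT and b0,+AT, the heavy and the light chain of the apical exchanger of cystine and dibasic amino acids that is lost in cystinuria. *Slc3a1* (ENSMUSG00000024131, chr17:85028376-85064236 on the plus strand), whose upstream sequence with the HNF4 motif is shown above, was measured at 182, 178 and 147 FPKM in Control and at 117, 144 and 131 FPKM in KSPAPN. Every KSPAPN library lay below every Control library, with KSPAPN replicate 2 and Control replicate 3 close together. KSPAPN differed from Control by a log2 fold change of -0.36 ± 0.11 (SE), and the adjusted p was 0.114 (edgeR) or 0.0427 (DESeq2). *Slc3a1* also overlaps 767 bases of *Prepl* on the opposite strand. *Prepl* had up to 2978 reads in a library and a log2 fold change of -0.081 ± 0.083 (SE). *Slc7a9* (ENSMUSG00000030492, chr7:35448796-35466036 on the plus strand) was measured at 41.2, 33.2 and 37.5 FPKM in Control and at 22.2, 29.2 and 34.4 FPKM in KSPAPN. KSPAPN replicate 3 lay above Control replicate 2, so that the groups overlapped. The light chain had a log2 fold change of -0.38 ± 0.15 (SE; edgeR adjusted p = 0.196).

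*Slc1a1* (ENSMUSG00000024935, chr19:28835049-28913960 on the plus strand) encodes EAAT3, the apical carrier of glutamate and aspartate. Levels of 33.4, 40.5 and 31.6 FPKM were measured in Control and 31.97, 41.8 and 34.5 FPKM in KSPAPN. The groups overlapped throughout, with replicate 2 the highest of each. The change on the log2 scale was 0.043 ± 0.12 (SE; edgeR adjusted p = 0.888), and its sign changed without Control replicate 3 or KSPAPN replicate 2.

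**Figure D1:**
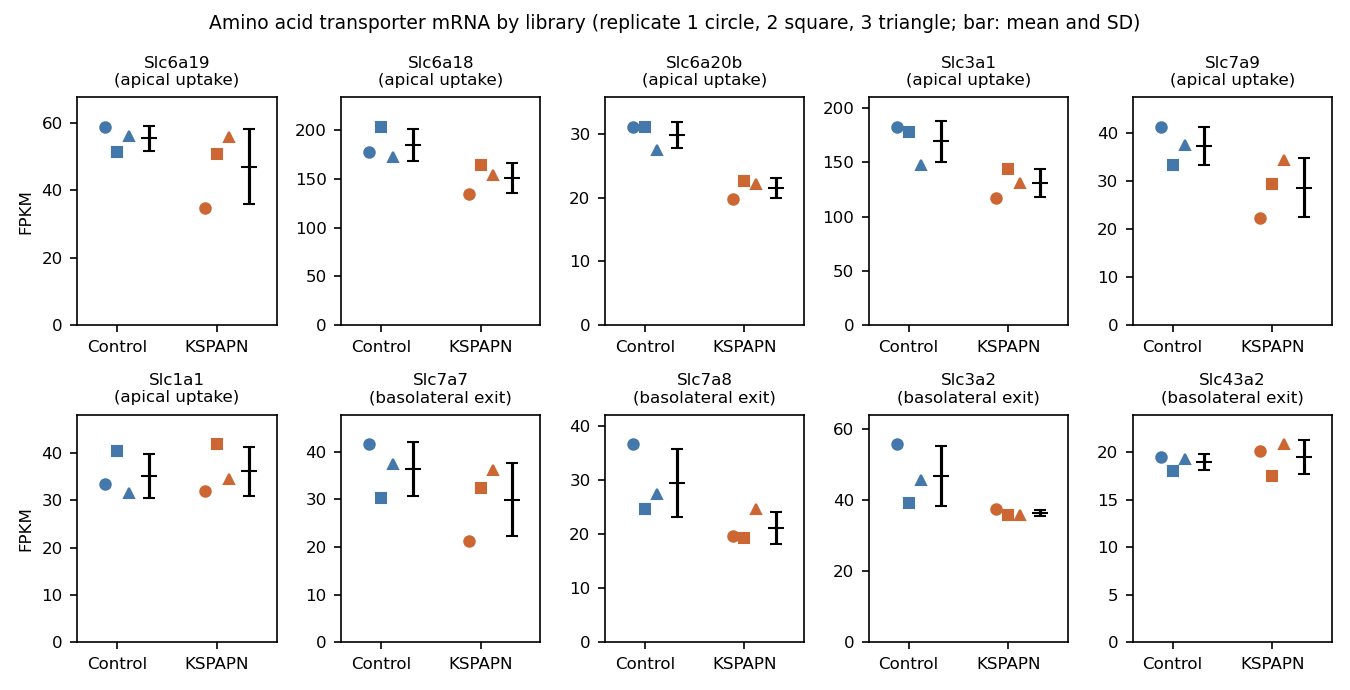
FPKM of the 10 transporters in each library, with the FPKM axis of each panel starting at 0, Control libraries in blue and KSPAPN libraries in orange, and the mean with its SD (n = 3) beside the points. In *Slc6a20b* the 3 KSPAPN libraries reach at most 22.6 FPKM and the Control libraries at least 27.4, whereas in *Slc1a1* and *Slc43a2* the groups overlap.

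On the basolateral side, *Slc7a8* and *Slc3a2* had the lowest fold changes, and no gene passed the test in edgeR. *Slc7a8* (ENSMUSG00000022180, chr14:54722209-54781946 on the minus strand) encodes LAT2, a light chain for exchange of neutral amino acids. Its levels were 36.6, 24.6 and 27.4 FPKM in Control and 19.7, 19.2 and 24.6 FPKM in KSPAPN. Control replicate 2 and KSPAPN replicate 3 were nearly equal, and Control replicate 1 stood above the rest. KSPAPN differed from Control by a log2 fold change of -0.47 ± 0.15 (SE), as large as that of *Slc6a20b*, and the adjusted p was 0.128 (edgeR) or 0.0337 (DESeq2). The log2 fold change was -0.29 without Control replicate 1.

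*Slc7a7* (ENSMUSG00000000958, chr14:54369442-54417780 on the minus strand) encodes y+LAT1, the light chain through which dibasic amino acids leave the cell, lost in lysinuric protein intolerance. It lies 304428 bases from *Slc7a8*, with 16 protein-coding genes between. Expression was 41.5, 30.2 and 37.4 FPKM in Control and 21.4, 32.3 and 36.1 FPKM in KSPAPN. KSPAPN replicate 1 was low, and the other KSPAPN libraries lay within the range of Control. The change on the log2 scale was -0.28 ± 0.18 (SE; edgeR adjusted p = 0.431) and was -0.072 without KSPAPN replicate 1. *Slc7a7* overlaps 232 bases of *Oxa1l* on the opposite strand, which had a log2 fold change of -0.38 ± 0.11 (SE).

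*Slc3a2* (ENSMUSG00000010095, chr19:8706882-8723369 on the minus strand) encodes 4F2hc, the heavy chain shared by y+LAT1 and LAT2 and present in many cell types. Levels were 55.6, 39.1 and 45.5 FPKM in Control and 37.5, 35.8 and 35.8 FPKM in KSPAPN. The KSPAPN libraries were close together and all below Control, while the Control libraries were spread (coefficient of variation 17.8% against 2.65%). Its log2 fold change was -0.36 ± 0.12 (SE; edgeR adjusted p = 0.153) and was -0.22 without Control replicate 1. *Slc43a2* (ENSMUSG00000038178, chr11:75531694-75577575 on the plus strand) encodes LAT4, a uniporter of branched-chain amino acids, phenylalanine and methionine. Its levels were 19.5, 18.01 and 19.3 FPKM in Control and 20.2, 17.5 and 20.8 FPKM in KSPAPN. The groups overlapped, and the log2 fold change was 0.047 ± 0.098 (SE; edgeR adjusted p = 0.837), with its sign changed without KSPAPN replicate 3.

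Every KSPAPN library lay below every Control library in 4 of the 10 genes (*Slc6a18*, *Slc6a20b*, *Slc3a1* and *Slc3a2*), beside 13.5% of all genes tested, and above it in 0, beside 10.8%. For a single gene without overlap the two-sided exact permutation test always gives p = 0.1, the smallest that 3 libraries against 3 allow. This p therefore adds nothing to the lack of overlap in these 4. The median log2 fold change was -0.32 over the 6 apical genes, with 5 below 0, and -0.32 over the 4 basolateral genes, with 3 below 0.

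**Figure D2:**
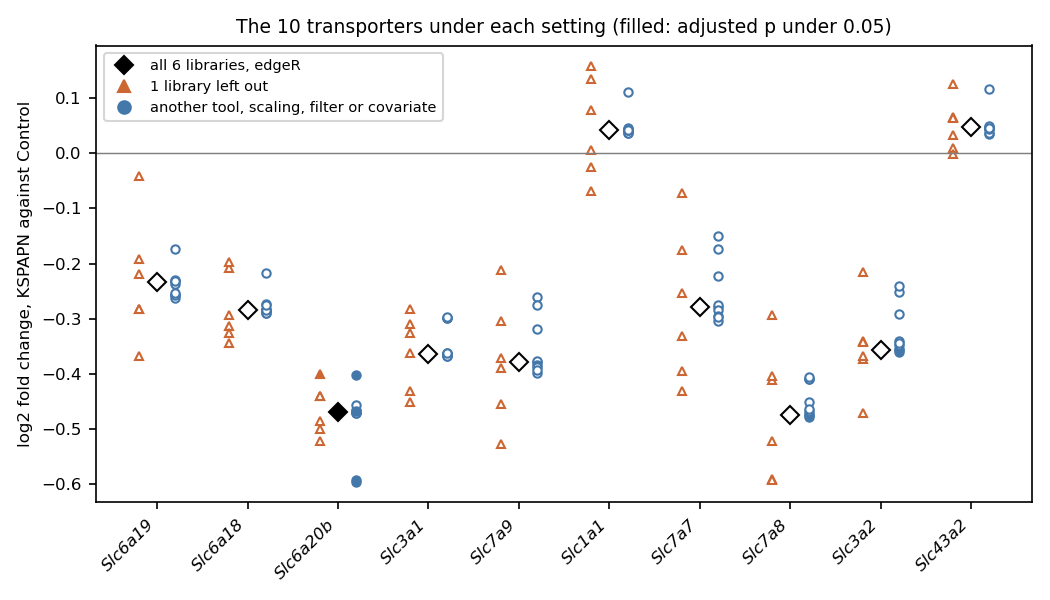
Log2 fold change of KSPAPN against Control for each of the 10 transporters with all libraries in edgeR (diamond), with each library left out (triangles) and with each other tool, scaling, filter or covariate (circles), filled where the adjusted p is under 0.05. The 8 genes below 0 stay below it at every setting run, and *Slc1a1* and *Slc43a2* lie on both sides of 0 with single libraries left out.

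By mean FPKM the same 4 genes were the most abundant in both groups. The range of the lowest of them, *Slc3a2*, overlapped that of the next gene, *Slc7a9* in Control and *Slc1a1* in KSPAPN. In Control, *Slc6a18* (185 ± 16.3 FPKM, SD, n = 3) and *Slc3a1* (169 ± 19.1) stood above the rest, with ranges that overlapped each other and no other gene. *Slc6a19* (55.5 ± 3.74) and *Slc3a2* (46.8 ± 8.33) followed. *Slc7a9*, *Slc7a7* and *Slc1a1* had means between 35.2 and 37.3 FPKM and overlapping ranges. *Slc6a20b* and *Slc7a8*, at 29.8 and 29.6 FPKM, could not be told apart, and *Slc43a2*, at 19.0 ± 0.826 FPKM, was the lowest without overlap. In KSPAPN the order was led by *Slc6a18* (151 ± 15.3 FPKM), *Slc3a1* (131 ± 13.2), *Slc6a19* (47.1 ± 11.0) and *Slc3a2* (36.4 ± 0.963). *Slc1a1*, in place 7 in Control, was in place 5 in KSPAPN at 36.1 ± 5.11 FPKM, with a range that overlapped those of its neighbours. *Slc43a2*, at 19.5 ± 1.78 FPKM, then overlapped with *Slc7a8* (21.2 ± 2.99). By mean FPKM among the protein-coding genes, *Slc6a18* was at place 201 in Control and 209 in KSPAPN, *Slc6a20b* at 1603 and 2078, and *Slc7a8* at 1611 and 2104.

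Light and heavy chains were compared as ratios within a library, which do not depend on the scaling of the libraries. The ratio of *Slc7a9* to *Slc3a1* was 0.226, 0.188 and 0.255 in Control and 0.190, 0.204 and 0.263 in KSPAPN. The groups overlapped, with the heavy chain the more abundant in every library. On the log2 scale, with 0.1 added to each FPKM, the means were -2.18 ± 0.22 and -2.21 ± 0.25 (SD, n = 3 each; difference -0.031, two-sided exact permutation test p = 1). The ratio of *Slc7a7* to *Slc3a2* was 0.747, 0.773 and 0.823 in Control and 0.571, 0.903 and 1.009 in KSPAPN. Its KSPAPN libraries were spread to both sides of the Control libraries (difference of log2 ratios 0.044, p = 1 by the same exact test). The ratio of *Slc7a8* to *Slc3a2* was 0.659, 0.630 and 0.604 in Control and 0.527, 0.539 and 0.689 in KSPAPN (difference of log2 ratios -0.12, exact permutation p = 0.4). In kidney, the carrier *Slc6a19* needs the membrane protein collectrin, encoded by *Cltrn* (formerly *Tmem27*), to reach the brush border. The ratio of *Slc6a19* to *Cltrn* was 0.0862, 0.0692 and 0.102 in Control and 0.119, 0.0950 and 0.127 in KSPAPN (difference of log2 ratios 0.41, exact permutation p = 0.2). Between same-numbered libraries the log2 ratio was higher in KSPAPN in 3 of 3 pairs, by 0.46, 0.46 and 0.32 (mean 0.41 ± 0.081, SD). An exact sign-flip test over these pairs, added after the values were seen, gave p = 0.25, the smallest that 3 pairs allow, and 1 after adjustment over the 4 ratios. After Benjamini-Hochberg adjustment over the 4 ratios, p was 1, 1, 0.8 and 0.8, and with 3 libraries against 3 no unadjusted p is under 0.1.

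**Figure D3:**
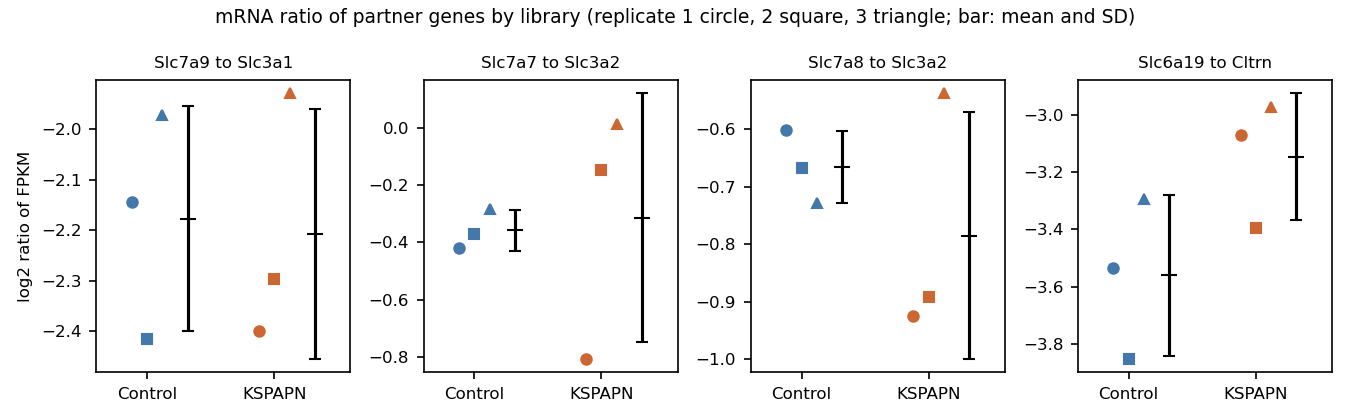
Log2 ratio of FPKM (plus 0.1) of 3 light chains to their heavy chains and of *Slc6a19* to *Cltrn* in each library, Control in blue and KSPAPN in orange, with mean and SD (n = 3) beside the points; the vertical axes differ and do not start at 0. The ranges of the groups overlap in all 4 panels, the *Slc6a19* to *Cltrn* ratio is higher in KSPAPN in each of 3 same-numbered pairs, and the *Slc7a7* to *Slc3a2* ratio spans 0.571 to 1.009 on the linear scale in KSPAPN.

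The libraries differed in how they carried the lower values. Relative to each gene's Control mean, the median of the 10 genes was 107%, 93.9% and 95.5% in the 3 Control libraries and 68.1%, 87.0% and 87.8% in the 3 KSPAPN libraries. KSPAPN replicate 1 held the lowest value of 6 of the 10 genes and Control replicate 1 the highest of 7. Markers of the proximal tubule were mostly lower as well. Of 12 such markers (among them *Lrp2*, *Slc34a1* and *Aqp1*), 11 had a log2 fold change below 0, beside 48.1% of all genes tested. In edgeR after adjustment 2 were lower (*Miox* and *Slc22a6*), beside 2.25%, and no marker was at 0 in any library. The summed FPKM of the 12 was 4010 to 4621 in Control and 3539 to 3743 in KSPAPN, where the mean was 84.0% of that of Control. The largest terms of this sum in Control were *Slc34a1*, *Slc27a2* and *Miox*, at 1212, 958 and 917 FPKM. In KSPAPN *Miox* was at 603 FPKM. The log2 fold change of *Slc27a2* was -0.018 and that of *Slc5a12* was 0.10. The summed FPKM of the 10 transporters was 602 to 678 in Control and 459 to 558 in KSPAPN, where the mean was 81.2% of that of Control. Per summed marker level, *Slc6a20b* was at 0.672%, 0.700% and 0.684% in Control and 0.558%, 0.604% and 0.598% in KSPAPN, without overlap. The groups overlapped for the other 9. The share of all genes without overlap by this measure was not determined, so the value of *Slc6a20b* has no background to be judged by. The part of the markers in the lower values was not tested, and in whole kidney fewer proximal tubule cells and less RNA per cell cannot be told apart.

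**Figure D4:**
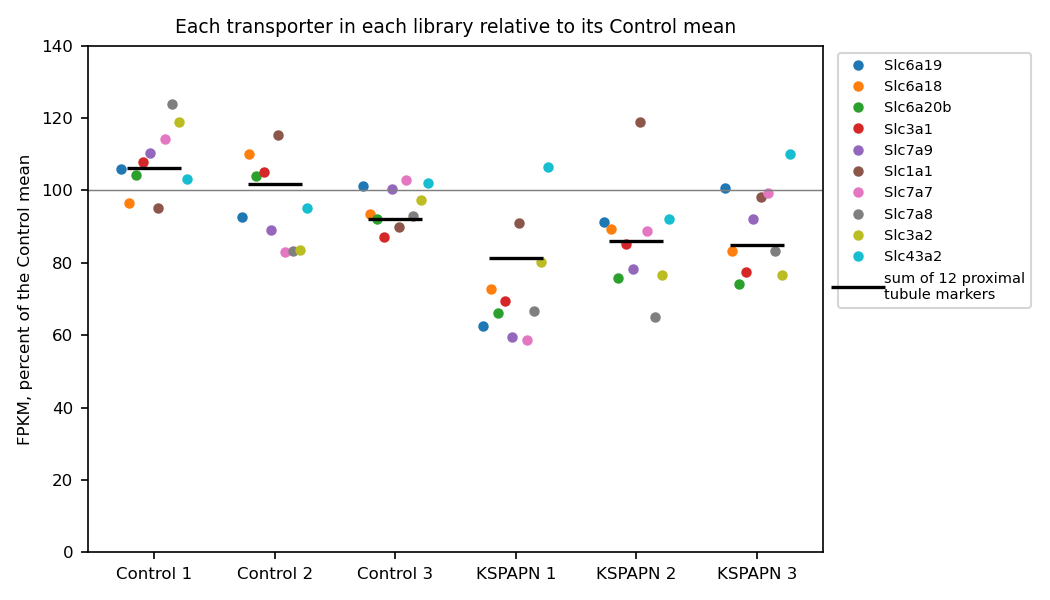
FPKM of each of the 10 transporters in each library as a percentage of its Control mean (points), with the summed FPKM of 12 proximal tubule markers on the same scale (black bars), on an axis from 0. In KSPAPN replicate 1 the points have a median of 68.1% and in KSPAPN replicates 2 and 3 of 87.0% and 87.8%, beside marker sums of 81.3%, 86.0% and 84.8%.

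Beyond these 10, 31 other amino acid transporters of the plasma membrane and lysosome were listed, of which 27 passed the filter on low counts. Of these, 2 were lower in edgeR after adjustment and 0 were higher, beside 2.25% and 0.393% of all genes tested. Before adjustment 6 were lower and 3 higher, beside 11.2% and 7.52%. With DESeq2, 5 of the 27 were lower and 2 were higher after adjustment, beside 744 and 181 of the 29416 genes with a p-value from it. The lower ones were *Slc7a13*, *Slc36a1*, *Slc6a15* (DESeq2 adjusted p = 0.0306), *Slc6a13* and *Slc6a9*. *Slc6a13* had a log2 fold change of -0.45 ± 0.12 (SE), and its adjusted p was 0.0744 (edgeR) or 0.0160 (DESeq2). For *Slc6a9* these were -0.58 ± 0.16 (SE), 0.0872 (edgeR) and 0.0397 (DESeq2). The higher ones, named after their values were seen, were *Slc38a2* and *Slc36a4*, for carriers of neutral amino acids. The log2 fold change of *Slc38a2* was 0.54 ± 0.13 (SE), and its adjusted p was 0.0620 (edgeR) or 0.00495 (DESeq2). That of *Slc36a4* was 0.59 ± 0.15 (SE), and its adjusted p was 0.0717 (edgeR), 0.0384 (edgeR with replicate number as a block) or 0.0220 (DESeq2). All KSPAPN libraries lay above all Control libraries in both. The median log2 fold change of the 27 was -0.048. The gene called in edgeR with the larger change was *Slc7a13* (ENSMUSG00000041052, chr4:19818725-19842218), for a light chain of the late proximal tubule that pairs with rBAT, the product of *Slc3a1*. Levels of 316, 376 and 227 FPKM were measured in Control and 61.5, 149 and 123 FPKM in KSPAPN, without overlap. Its log2 fold change was -1.46 ± 0.28 (SE; edgeR adjusted p = 0.0259), a level of 0.363 times that of Control. Without single libraries it was between -1.73 and -1.16, and the adjusted p from edgeR rose to 0.113 and 0.0770 on omission of Control replicates 1 and 2 and to 0.0972 on omission of KSPAPN replicate 3. The other light chain of rBAT, *Slc7a9*, is described above, and a difference between both changes was not tested.

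The other gene called in edgeR was *Slc36a1*, for a proton-coupled carrier of small neutral amino acids, at 30.1, 30.4 and 26.8 FPKM in Control and 18.5, 23.1 and 21.8 in KSPAPN. Its log2 fold change was -0.46 ± 0.10 (SE; edgeR adjusted p = 0.0448). In edgeR this call was lost with RLE size factors (adjusted p = 0.0515), with total counts (0.0574), with a trend of the fold changes on GC and transcript length removed (0.0865) and on omission of any library (0.0577 to 0.193). *Slc7a12* had a log2 fold change of -2.19 ± 0.76 (SE; edgeR adjusted p = 0.157), which rested on Control replicate 1. Its levels were 12.6, 0.729 and 2.71 FPKM in Control and 0.962, 1.26 and 1.30 in KSPAPN, and the log2 fold change was -0.55 without Control replicate 1 and -2.70 without Control replicate 2 (adjusted p = 0.0471, edgeR). *Slc6a15*, for a neutral amino acid carrier known from brain, had a log2 fold change of -0.66 ± 0.22 (SE), where edgeR gave an adjusted p of 0.142, and of 0.0423 with replicate number as a block.

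Among partners and regulators of these carriers, *Cltrn* was the most abundant, at 684, 744 and 552 FPKM in Control and 293, 535 and 439.8 in KSPAPN. Its log2 fold change was -0.64 ± 0.19 (SE), where edgeR gave an adjusted p of 0.107, and of 0.0495 with replicate number as a block. DESeq2 gave an adjusted p of 0.00676 for *Cltrn*. The log2 fold change of *Hnf4a* was 0.034 ± 0.11 (SE; edgeR adjusted p = 0.905). The scaffold genes *Pdzk1* and *Slc9a3r1* had log2 fold changes of -0.11 and -0.28 (standard errors 0.10 and 0.10), with adjusted p of 0.62 and 0.175 from edgeR.

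Also listed were 12 genes for brush border peptidases and peptide transporters, which free amino acids from peptides in the lumen or carry the peptides. In edgeR 2 were lower and 0 higher after adjustment, beside 2.25% and 0.393% of all genes tested. Before adjustment 7 were lower and 1 higher, beside 11.2% and 7.52%. The higher one, *Slc15a1*, had only 6 to 26 reads in a library. *Ace*, for angiotensin-converting enzyme, fell from 47.1 ± 8.16 to 27.6 ± 3.11 FPKM (SD, n = 3 each; log2 fold change -0.77, standard error 0.13, adjusted p = 0.0181 from edgeR). Omitting Control replicate 1, Control replicate 2 or KSPAPN replicate 3 raised the adjusted p of *Ace* to 0.0948, 0.0632 and 0.0977 in edgeR. *Ggt1*, for the gamma-glutamyltransferase that cleaves glutathione, had a log2 fold change of -0.52 ± 0.12 (SE; edgeR adjusted p = 0.0483), but the call was lost with RLE size factors (0.0570), with total counts (0.0511), with the GC and length trend removed (0.187) and on 5 of 6 omissions of a library, where it was up to 0.196. *Mep1b*, for a meprin subunit, had a log2 fold change of -1.24 ± 0.30 (SE), where edgeR gave an adjusted p of 0.0568, and of 0.0426 with the block. *Slc15a2*, for the high-affinity peptide carrier, was at -0.61 ± 0.22 (SE), with an adjusted p of 0.173 (edgeR) or 0.0427 (DESeq2).

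**Figure D5:**
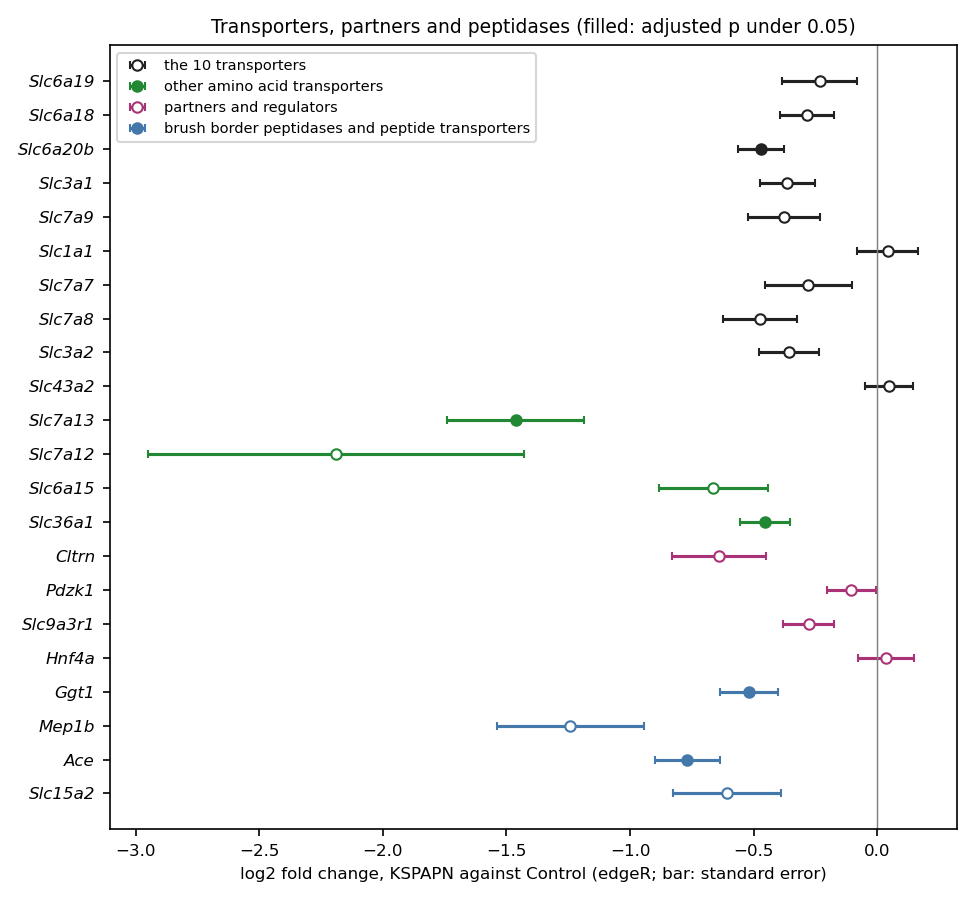
Log2 fold change of KSPAPN against Control with its standard error (edgeR, n = 3 libraries each) for the 10 transporters and for named genes of 3 related lists, filled where the adjusted p is under 0.05. *Slc6a20b* is the filled point among the 10, and *Slc7a13* at -1.46 and *Mep1b* at -1.24 lie further from 0 than any of them.

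Libraries held 17183358 to 20871173 reads on genes, and *Adipoq* had 0 to 2 reads in Control and 17483 to 26811 in KSPAPN. Over all genes tested, 63 were higher and 361 lower in edgeR after adjustment, and 71 and 195 with total counts as the only scaling. Of 13 medullary and distal markers, 8 had a log2 fold change above 0 and 5 below, while 48.1% of all genes tested were below 0. These markers summed to 1476 to 1674 FPKM in Control and to 1973, 1437 and 1505 FPKM in KSPAPN replicates 1, 2 and 3. The highest sum was thus in KSPAPN replicate 1, which held the lowest value of 6 of the 10 transporters. Of 10 glomerular and endothelial markers, 9 were above 0 (summed FPKM 68.1 to 89.8 in Control and 85.6 to 114 in KSPAPN). Immune markers summed to 122 to 140.5 and 112 to 165 FPKM, hepatocyte markers to 11.3 to 18.8 and 8.96 to 20.3, and adipocyte markers to 8.89 to 9.17 and 9.39 to 12.9. The hepatocyte markers *Ahsg* and *Cps1* were higher in KSPAPN without overlap, on few reads. *Ahsg* had 0 to 1 reads in Control and 2, 14 and 15 in KSPAPN. *Cps1* had 0 in Control and 1, 14 and 31 in KSPAPN. Neither passed the filter on low counts. *Alb* had 47 to 111 reads in Control and 15, 191 and 213 in KSPAPN. Of the 5 hepatocyte markers tested, 3 had a log2 fold change below 0 and 2 above.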

How the data were processed

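RNA from 6 pools of whole kidney was measured by sequencing of oligo(dT)-enriched mRNA, per the study's methods. The authors deposited raw read counts per gene, which are not normalized, and FPKM, for which they scaled counts by gene length and library total. Submitters' processing notes name STAR 2.5, TopHat, HTSeq 0.6.1, DESeq2 and edgeR without saying what each did, and sources used here give neither genome build, annotation nor strandedness. Ensembl identifiers gave symbols and coordinates through GENCODE M21 (GRCm38) for 54495 of 54532 genes. The members and gene lists were chosen with earlier results of these data known.

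Counts were compared with edgeR 4.0.16 in R 4.3.3 by the quasi-likelihood test, two-sided, with TMM factors, its filter on low counts (minimum count 10, total 15) and Benjamini-Hochberg adjustment over the 16017 genes left. Standard errors are the log2 fold change divided by the root of the F statistic. Single values were compared with an exact permutation test (20 arrangements). Errors are given as SD or standard error.

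Alternatives were DESeq2 1.42.0, RLE factors, total counts, no filter, limma 3.58.1 on log2(FPKM + 1) and log2(FPKM + 0.1), replicate number as a block, removal of a GC and length trend over the longest transcript (splines with 5 degrees of freedom), each library left out and, chosen after seeing the data, an exact sign-flip test of the ratios over same-numbered pairs. Same-numbered libraries deviated together from their group means (r of 0.188, 0.386 and 0.225 across 10211 genes), so the blocked fit is given where it changes a call. The pairing comes from these values and from the numbers in the sample titles alone. Genes named are the 10 transporters, *Adipoq*, 4 partners and regulators (others on that list, and other motifs searched, are not reported here), and from the other transporter and peptidase lists the genes at an adjusted p under 0.05 and the 3 with the largest log2 fold change at a mean FPKM of at least 1. *Sacm1l*, *Prepl*, *Oxa1l* and *Slc6a20a* are named for their overlap or likeness to a member. Named after their values were seen are transporters that DESeq2 called and edgeR without a block did not, and *Slc15a1*. Single proximal tubule and hepatocyte markers were also named after their values were seen. One list wrote *Cltrn* as *Tmem27*, an older symbol. The methods were tested on simulated counts. Python 3.11.15, pandas 2.3.3 and matplotlib 3.10.9 were used for tables and plots.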

Additional observations from a re-analysis of the deposited data

How the results depend on the processing

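At an adjusted p under 0.05, the number of the 10 transporters lower in KSPAPN was 1 in edgeR, 3 in DESeq2, 5 without a filter on low counts and 0 in both limma fits of log2 FPKM. It was 0 to 1 with single libraries left out, being 1 without KSPAPN replicate 1 and 0 without any other. It was 1 with RLE factors, with total counts, with replicate number as a block, with the trend removed and with both together, and the number higher was 0 at every setting run. With single libraries left out, the log2 fold change ranged from -0.068 to 0.16 for *Slc1a1* (-0.025 and -0.068 without Control replicate 3 and KSPAPN replicate 2) and from -0.0016 to 0.13 for *Slc43a2* (-0.0016 without KSPAPN replicate 3). With single libraries left out, the difference of log2 ratios ranged from -0.17 to 0.072 for *Slc7a9* to *Slc3a1* (0.072, 0.065 and 0.013 without Control replicate 3, KSPAPN replicate 1 and KSPAPN replicate 2) and from -0.12 to 0.29 for *Slc7a7* to *Slc3a2* (-0.039 and -0.12 without KSPAPN replicates 2 and 3). The cause was not tested. The blocked fit changed no call among the 10 transporters. With replicate number as a block, the exact sign-flip p of the 4 ratios was 1, 1, 0.5 and 0.25, where 0.25 is the smallest that 3 pairs allow. Over all genes, higher and lower calls were 63 and 361 in edgeR, 224 and 705 with the block, 187 and 491 with block and trend removed, 97 and 300 with the trend removed, 181 and 744 in DESeq2, 301 and 1038 without a filter, 10 and 118 or 10 and 109 in limma with pseudocounts of 1 and 0.1, and 5 to 162 and 34 to 571 with single libraries left out. Each of the 10 genes had at least 1383 reads in every library, and the standard errors of their log2 fold changes, between 0.093 and 0.18, reflect the spread between 3 pools per group.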
